A study of Mus musculus with 15 samples.

Results

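Complement C1q is encoded by 3 genes, C1qa, C1qb and C1qc, which are 3 of the 754 genes counted on the nCounter Myeloid Innate Immunity Panel. They were chosen by name, with their levels in all groups of the study already known, so the differences in their levels are given as a description and carry no p. The panel binds colour-coded probes to target RNAs and counts each bound probe without amplification. Mouse bone marrow-derived macrophages (BMDMs) grown in M-CSF, a growth factor for macrophages, made up 15 samples in 4 groups. M1-like standards (MPLA, 4 samples) were kept for 4 days in 20 ng/mL of monophosphoryl lipid A, an agonist of Toll-like receptor 4, and M2-like standards (IL4, 4 samples) for 4 days in 20 ng/mL of interleukin-4. In 2 further groups, IL-4-conditioned BMDMs received 1 µg of nanoparticles for 1 h, loaded either with mRNA for IRF5 (IRF5-NP, 3 samples, with the numbers 1, 2 and 4) or with eGFP mRNA as the control cargo (eGFP-NP, 4 samples). The methods of the study give another nanoparticle amount, stated as mRNA, and which of them applies here is not settled. By those methods the IRF5 particles held mRNA for the kinase IKKβ as well, plus some eGFP mRNA as a reporter, and the brightest transfected cells were sorted and returned to a lower IL-4 concentration before RNA isolation. The standards are not described as sorted, so nanoparticle exposure, sorting and the second culture cannot be told apart in any comparison of a nanoparticle group with a standard.

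C1q is the recognition molecule of the classical complement pathway. It is built from A, B and C chains that assemble through collagen-like stalks into a bouquet of globular heads, and the heads bind antibody in immune complexes, pentraxins and the surface of dying cells. Bound C1q activates the proteases C1r and C1s, which cleave C4 and C2 and so lead to cleavage of C3. Unlike most complement proteins, which come from the liver, C1q is made chiefly by macrophages, microglia and immature dendritic cells, and it is known as a marker of tissue-resident and tumour-associated macrophages and as a bridge for the uptake of apoptotic cells.

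The 3 genes lie next to each other on mouse chromosome 4, in the order C1qb, C1qc and C1qa between Gm31536, a long non-coding RNA gene, and Epha8, an ephrin receptor gene, in the RefSeq annotation of GRCm38.p6. Because these neighbours had similar profiles over the libraries, the sequence just upstream of C1qb (chr4:136886201-136886450, minus strand, 250 bases) and of C1qc (chr4:136892937-136893164, minus strand, 228 bases) is shown, from RefSeq on GRCm38.p6 and ending at the base before the annotated start of each gene. Promoter entries matched 2 of the 3 genes, C1qb and C1qc, and not C1qa. Capitals mark matches to GAGGAA, or TTCCTC on the other strand, the core bound by the macrophage factor PU.1.
C1qb: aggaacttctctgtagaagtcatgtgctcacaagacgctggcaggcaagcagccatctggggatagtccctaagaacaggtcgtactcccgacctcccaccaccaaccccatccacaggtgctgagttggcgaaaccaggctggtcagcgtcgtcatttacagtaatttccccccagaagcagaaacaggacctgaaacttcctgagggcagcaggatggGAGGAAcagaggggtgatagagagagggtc
C1qc: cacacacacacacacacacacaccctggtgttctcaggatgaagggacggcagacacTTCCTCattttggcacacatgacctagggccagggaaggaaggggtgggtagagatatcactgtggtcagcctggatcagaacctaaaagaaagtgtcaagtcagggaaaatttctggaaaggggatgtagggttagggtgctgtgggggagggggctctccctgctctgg
Each sequence held 1 match, which began 30 bases upstream of C1qb and 171 bases upstream of C1qc. The core was present in 23.3% of 32851 promoters, searched on both strands. Of the other motifs searched, 4 are given here and none of them was found in either sequence, namely the interferon-stimulated response element core (in 2.98% of promoters), the STAT6-type palindrome (5.85%), an NF-kB family motif (4.65%) and a C/EBP core (9.56%). A match is a description of the letters in this window and not a measured binding site.

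The MPLA libraries held 1618914 to 1784833 gene counts each, the IL4 libraries 1087549 to 1639968, the IRF5-NP libraries 266169 to 1510011 and the eGFP-NP libraries 738305 to 1524232. Background, set at the mean of the negative controls plus 2 SD, lay between 19.7 and 34.9 counts, and every C1q count was above it. Within groups, 5 of 21 pairs of libraries were nearly identical (MPLA 1 with 4 and 2 with 3, IRF5-NP 1 with 2, and eGFP-NP 1 with 2 and 3 with 4). For eGFP-NP 1 and 2 a chi-square test found no difference beyond sampling noise among genes with 40 or more counts in the pair (1.09 per degree of freedom, p = 0.0817), though it did among those with 100 or more (1.15, p = 0.0162). These libraries were counted as 1 sample (eGFP-NP 1-2), which left 14 libraries and n = 3 for eGFP-NP. Nothing in the labels says that replicates came from separate cultures. The study's legend for its BMDM expression figure gives 5 biologically independent samples, a number that matches no group here. Standard errors and p-values therefore measure the spread between these libraries, which may be technical. Fibroblast genes split the libraries within every group but MPLA. The mean level of 8 stromal genes was 4.62 log2 CPM or lower in IL4 3, IRF5-NP 1 and 2 and eGFP-NP 1-2, where at most 1 of the 8 was above background, and 9.74 or higher in all other libraries, where all 8 were. Of 13 pan-macrophage genes, 11 or 12 were above background in every library, as were 1 to 4 of 8 neutrophil genes. Ms4a1, the B-cell gene CD20 and the only listed lymphocyte marker in the table, was above background in IL4 2 alone.

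All 3 subunits were highest in IL4 and lowest in eGFP-NP, with IRF5-NP and MPLA between. C1qa, which encodes the A chain, had 1665, 15028, 2566 and 3364 counts in IL4 1 to 4 and 660, 678, 770 and 721 counts in MPLA 1 to 4. In the nanoparticle groups C1qa had 1042, 839 and 225 counts in IRF5-NP 1, 2 and 4 and 251, 282, 117 and 101 counts in eGFP-NP 1 to 4. IRF5-NP 4 was the shallowest library, so its counts are low for most genes, and levels below are therefore given as log2 CPM (CPM is the count scaled for library depth, here with TMM factors). On that scale C1qa was 11.55 ± 1.27 (SD, n = 4) in IL4, 9.46 ± 0.47 (SD, n = 3) in IRF5-NP, 8.58 ± 0.10 (SD, n = 4) in MPLA and 7.21 ± 0.59 (SD, n = 3) in eGFP-NP. For C1qa no neighbours in this order overlapped.

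C1qb, which encodes the B chain, had 4174, 36950, 6442 and 7472 counts in IL4 1 to 4 and 1250, 1491, 1563 and 1332 counts in MPLA 1 to 4. It had 1428, 1370 and 235 counts in IRF5-NP 1, 2 and 4 and 436, 457, 304 and 244 counts in eGFP-NP 1 to 4. IL4 2 again held by far the highest count. The C1qb level was 12.82 ± 1.29 log2 CPM (SD, n = 4) in IL4, 9.87 ± 0.75 (SD, n = 3) in IRF5-NP, 9.56 ± 0.19 (SD, n = 4) in MPLA and 8.34 ± 0.26 (SD, n = 3) in eGFP-NP. Here IRF5-NP and MPLA overlapped, since IRF5-NP 4 lay below every MPLA library and IRF5-NP 1 and 2 (both 10.30) above them.

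C1qc, which encodes the C chain, had 6215, 39989, 9411 and 11802 counts in IL4 1 to 4 and 3783, 4254, 4608 and 3628 counts in MPLA 1 to 4. It had 4968, 4681 and 926 counts in IRF5-NP 1, 2 and 4 and 1989, 2021, 1031 and 821 counts in eGFP-NP 1 to 4. The C1qc level was 13.30 ± 1.05 log2 CPM (SD, n = 4) in IL4, 11.72 ± 0.64 (SD, n = 3) in IRF5-NP, 11.09 ± 0.19 (SD, n = 4) in MPLA and 10.22 ± 0.50 (SD, n = 3) in eGFP-NP. As for C1qb, IRF5-NP and MPLA overlapped through IRF5-NP 4 (10.98 log2 CPM), and the other neighbours did not. Scaled to housekeeping genes, the order of groups was the same and the overlap of IRF5-NP with MPLA was seen for C1qb alone.

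**Figure D1:**
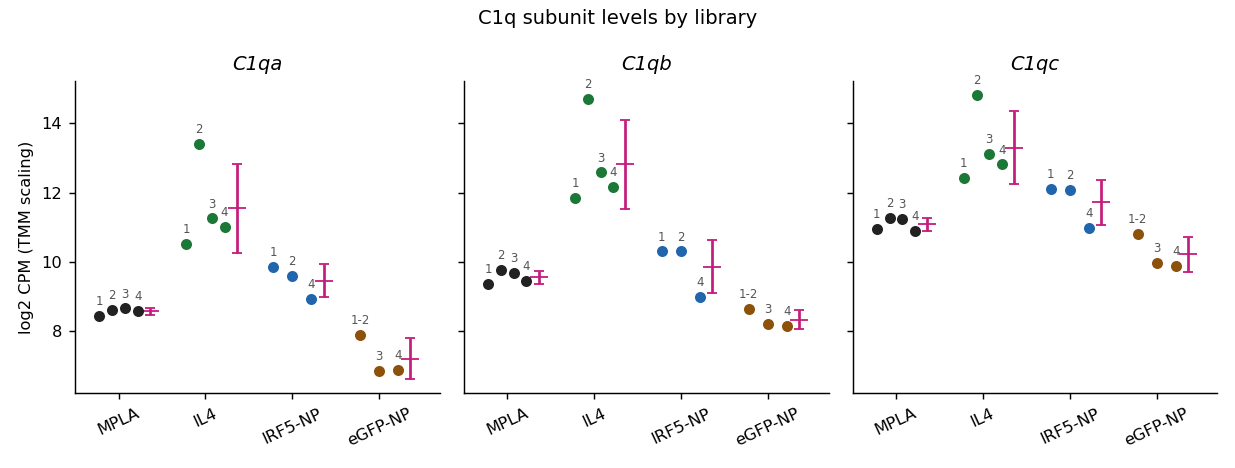
Levels of C1qa, C1qb and C1qc in log2 CPM (vertical axis) for the 14 libraries of the 4 groups (horizontal axis). Points are libraries with their replicate numbers, and the bar beside each group is the mean with its SD. IL4 2 stands above all other libraries for each gene, and eGFP-NP libraries are the lowest.

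The position of IRF5-NP 4 within its group depended on the scale. As a share of all gene counts with no further scaling, the 3 C1q genes together took 0.493%, 0.486% and 0.521% in IRF5-NP 1, 2 and 4, so that library 4 was the highest, whereas after TMM scaling it was the lowest for each subunit. The same share was 0.319% to 0.408% in MPLA, 0.158% to 0.181% in eGFP-NP and 1.11%, 1.18% and 1.38% in IL4 1, 3 and 4. In IL4 2 the share was 6.19%. On this unscaled share the 4 groups did not overlap, with the same order of groups.

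The difference between the standards was read first. In MPLA, C1qa was lower than in IL4 by a log2 difference of -3.43 ± 0.66 SE (10.8-fold), C1qb by -3.72 ± 0.68 (13.1-fold) and C1qc by -2.49 ± 0.54 (5.61-fold, n = 4 and 4). For all 3 genes the MPLA libraries lay below every IL4 library. Across all 754 genes 15.1% lay below in this way, a share given as background from which nothing is read, because the members were chosen with these levels known. IL4 2 carried much of the size, and without it the differences were -2.37 ± 0.19 (5.15-fold), -2.63 ± 0.22 (6.21-fold) and -1.70 ± 0.21 (3.24-fold). Markers of other cells moved with this comparison. The mean level of the 8 stromal genes was 12.6 ± 0.05 log2 CPM (SD, n = 4) in MPLA and 9.14 ± 3.10 (SD, n = 4) in IL4, and that of the 8 neutrophil genes was 4.99 ± 0.09 and 4.09 ± 0.31, in each case without overlap. At most 4 of the 8 neutrophil genes were above background in any library, and their part in the C1q differences was not tested. In bulk RNA, fewer C1q-expressing cells and less C1q RNA per cell cannot be told apart, and this holds for every difference below.

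After IRF5-NP, the subunits were lower than in IL4 by log2 differences of -2.64 ± 0.83 SE for C1qa (6.25-fold), -3.46 ± 0.91 for C1qb (11.0-fold) and -1.94 ± 0.73 for C1qc (3.83-fold, n = 3 and 4). Without IL4 2 these were -1.45 ± 0.43, -2.24 ± 0.52 and -1.02 ± 0.47. All 3 genes lay below every IL4 library, as did 4.38% of all genes. In eGFP-NP the differences from IL4 were -4.88 ± 0.95 for C1qa (29.4-fold), -5.10 ± 0.94 for C1qb (34.4-fold) and -3.47 ± 0.76 for C1qc (11.1-fold, n = 3 and 4), and without IL4 2 they were -3.67 ± 0.47, -3.88 ± 0.40 and -2.53 ± 0.43. Here too the 3 genes lay below every IL4 library, as did 6.9% of all genes. Both comparisons use the same IL4 libraries. Scaled to the positive spike-in controls, the differences in C1qa, C1qb and C1qc were 10.7-, 17.9- and 6.10-fold for IRF5-NP and 78.3-, 95.3- and 28.7-fold for eGFP-NP. Scaled to the pan-macrophage genes they were smaller, at 5.27-, 9.99- and 3.41-fold for IRF5-NP and 19.3-, 20.6- and 7.10-fold for eGFP-NP.

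The cargo was compared within the nanoparticle groups, which were both conditioned with IL-4 and sorted. C1q was higher in IRF5-NP than in eGFP-NP, by log2 differences of 2.23 ± 0.41 SE for C1qa (4.68-fold), 1.62 ± 0.37 for C1qb (3.08-fold) and 1.51 ± 0.42 for C1qc (2.85-fold, n = 3 and 3). The groups did not overlap for any subunit, and 7.96% of all genes lay above in this way. Positive control scaling gave 7.29-, 5.34- and 4.71-fold for C1qa, C1qb and C1qc, and pan-macrophage scaling gave 3.67-, 2.06- and 2.08-fold. Same-numbered libraries, which deviated together across genes, gave differences in C1qa of 2.02, 1.65 and 2.05 for numbers 1, 2 and 4. In C1qb these differences were 1.68, 1.66 and 0.85, and in C1qc they were 1.29, 1.29 and 1.08. C1q was higher in the IRF5-NP library of each number. Stromal genes were near background in numbers 1 and 2 and not in number 4, which holds the shallowest library (IRF5-NP 4). The labels do not say that a shared number marks a shared culture. IRF5-NP 1 and 2 are nearly identical to each other, as are eGFP-NP 1 and 2, so the first 2 numbers may not be independent. Between these groups limma and edgeR called no gene of the whole panel after adjustment, DESeq2 called 7, and edgeR had 42 genes at an unadjusted p under 0.05.

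Against MPLA the nanoparticle groups lay on opposite sides. In eGFP-NP the subunits were lower than in MPLA by log2 differences of -1.33 ± 0.29 SE for C1qa (2.51-fold), -1.27 ± 0.19 for C1qb (2.40-fold) and -0.86 ± 0.27 for C1qc (1.81-fold, n = 3 and 4), with no overlap, as for 23.6% of all genes. Under positive control scaling these were 4.87-, 4.84- and 3.55-fold, and under pan-macrophage scaling 2.24-, 1.95- and 1.57-fold. In IRF5-NP C1qa was higher than in MPLA by 1.01 ± 0.18 (2.01-fold, n = 3 and 4) with no overlap, as for 17.1% of all genes. C1qb (0.47 ± 0.28) and C1qc (0.76 ± 0.25) overlapped between IRF5-NP and MPLA. With the stromal mean as a covariate the IRF5-NP difference from MPLA turned to -0.48 for C1qb and was 0.0078 for C1qc, and it stayed positive for C1qa (0.56). The neutrophil mean was 4.99 ± 0.09 log2 CPM (SD) in MPLA, 4.63 ± 0.24 in IRF5-NP and 4.51 ± 0.27 in eGFP-NP. MPLA overlapped neither nanoparticle group in it, and its part in these differences was not tested.

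**Figure D2:**
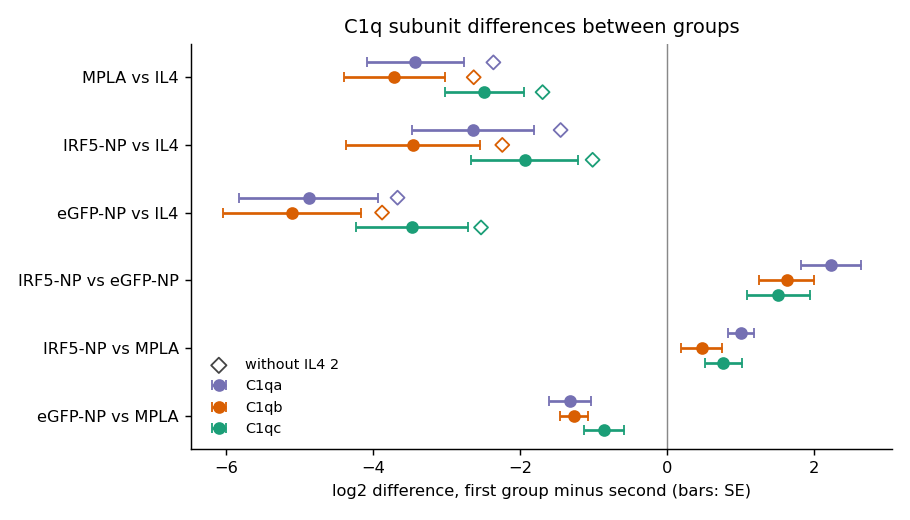
Log2 differences (horizontal axis, first group minus second) of C1qa, C1qb and C1qc for the 6 comparisons (vertical axis). Filled points with bars are the fitted differences with their SE, and open diamonds are the values without IL4 2, which lie nearer to 0 in each comparison with IL4.

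Stromal content differed between libraries and groups, and C1q was set beside it. MPLA stood apart from all other libraries, with stromal means of 12.6 to 12.7 log2 CPM and 9.66% to 11.1% of its counts in these 8 genes, against at most 11.6 log2 CPM and 5.64% of counts elsewhere. IL4 2 and IL4 3 had the highest C1q means of all libraries (14.3 and 12.3 log2 CPM over the 3 genes), with stromal means of 11.5 and 4.62. In IRF5-NP the C1q mean was 10.8 and 10.7 in libraries 1 and 2, with stromal means of 4.07 and 4.04, and 9.64 in library 4, with 10.9. In eGFP-NP it was 9.11 in library 1-2, with a stromal mean of 3.97, and 8.35 and 8.31 in libraries 3 and 4, with 11.5 and 11.6. Within each nanoparticle group the libraries with more stromal RNA thus had the lower C1q level on the TMM scale. Taken relative to the mean of the 13 pan-macrophage genes the order within the groups turned: the C1q mean was -0.47 and -0.61 in IRF5-NP 1 and 2 and -0.02 in IRF5-NP 4, and it was -2.22 in eGFP-NP 1-2 and -1.46 and -1.44 in eGFP-NP 3 and 4. On this scale it was 0.96 to 3.42 in IL4 and -0.97 to -0.58 in MPLA. IL4 remained above, and eGFP-NP below, all other groups, and IRF5-NP overlapped MPLA. With the stromal mean as a covariate, the log2 differences of C1qa, C1qb and C1qc were 2.01, 1.33 and 1.23 for IRF5-NP against eGFP-NP and -4.04, -4.32 and -2.97 for MPLA against IL4. They were -2.31, -3.27 and -1.87 for IRF5-NP against IL4 and -4.84, -4.99 and -3.47 for eGFP-NP against IL4. Of the 6 comparisons, the sign differed from that of the fit without the covariate for C1qb in IRF5-NP against MPLA alone.

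**Figure D3:**
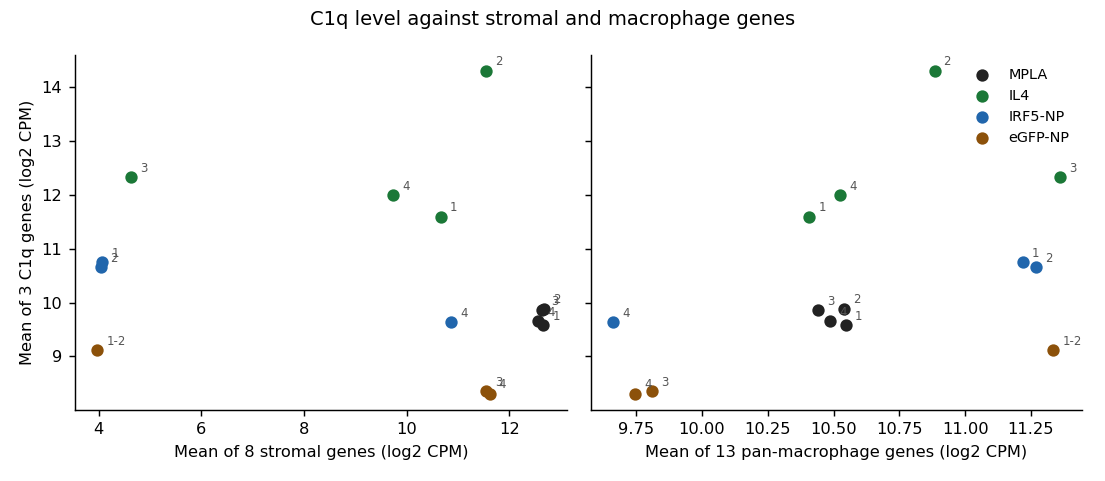
Mean level of the 3 C1q genes (vertical axis, log2 CPM) against the mean of 8 stromal genes (left) and of 13 pan-macrophage genes (right, both log2 CPM), 1 point per library, coloured by group and labelled with the replicate number. IL4 libraries lie above the others at both low and high stromal levels, and eGFP-NP libraries lie lowest.

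The subunits did not differ between groups to the same extent. The share of each gene among the summed C1q counts of a library needs no scaling between libraries, and since each gene has its own probe, it is compared between libraries and not between genes. C1qc made up 43.5% to 52.1% of the C1q counts in IL4, 63.9% to 66.5% in MPLA, then 66.8% to 67.9% for IRF5-NP and 70.4% to 73.8% for eGFP-NP, and no groups overlapped. The gap between MPLA and IRF5-NP was within the Wilson 95% intervals of single libraries, which were 65.2% to 67.7% in MPLA 1 and 65.7% to 67.9% in IRF5-NP 1. C1qb made up 33.0% to 40.2% in IL4 and 21.96% to 23.4% in MPLA. In IRF5-NP its share was 17.0% to 19.9%, and in eGFP-NP 16.4% to 20.9%. C1qb in IL4 was thus above every other library, and the nanoparticle groups overlapped. C1qa made up 13.8% to 16.3% in IL4 and 12.2% to 16.2% in IRF5-NP, and 10.6% to 12.7% in MPLA and 8.06% to 9.81% in eGFP-NP. The C1qa share in IRF5-NP thus overlapped both IL4 and MPLA, whereas its C1qb share overlapped neither. IL4 2, which had the highest C1q counts, had the lowest C1qc share (43.5%) and the highest C1qb share (40.2%). The intervals cover counting error only.

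**Figure D4:**
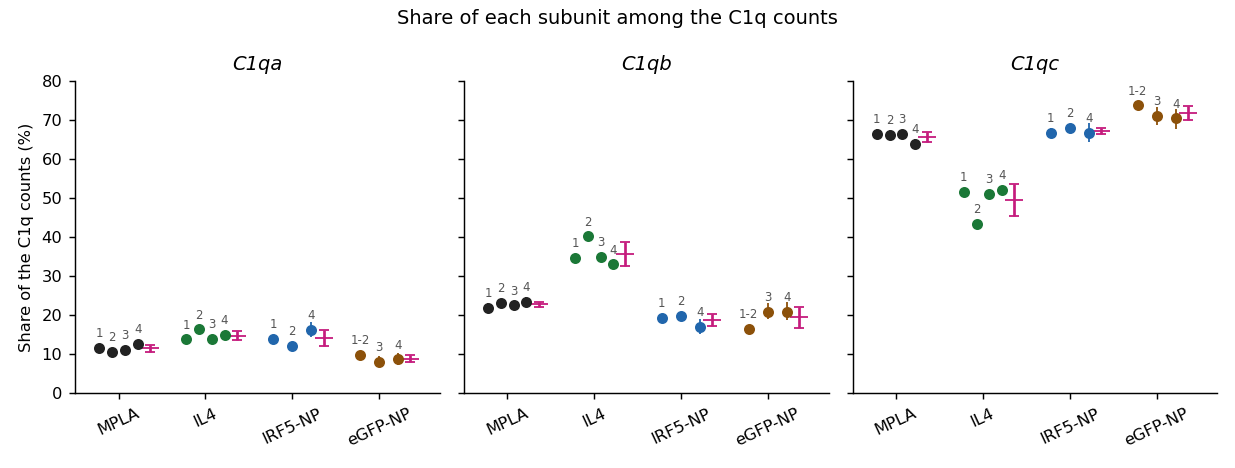
Share of C1qa, C1qb and C1qc among the summed C1q counts of each library (vertical axis, %), by group (horizontal axis). Points are libraries with Wilson 95% intervals, and the bar beside each group is the mean with its SD. C1qc takes at most 52.1% in IL4 and at least 63.9% in every other library.

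Over the 14 libraries the levels of the subunits followed each other, with Pearson r of 0.98 between C1qa and C1qb, 0.99 between C1qa and C1qc and 0.98 between C1qb and C1qc. Without IL4 2 these were 0.96, 0.99 and 0.97, and for deviations from the group means they were 0.96, 0.98 and 0.98. The points share libraries, scaling and stromal content, and the values are a description.

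The genes whose profile was most like that of C1q were sought among 549 genes above background in at least 7 libraries, by Pearson r with the mean of the 3 C1q genes over 14 libraries. The highest were Psmb9, a subunit of the immunoproteasome (0.95), H2-Q1 and H2-T23, non-classical MHC class I genes (both 0.90), Tnfrsf14, the receptor HVEM (0.89), and H2-DMb1, a chain of the MHC class II peptide-loading factor (0.86). IL4 2 was a high point for all 5. Psmb9 had 309, 2172, 608 and 333 counts in IL4 1 to 4 and 224 to 352 in MPLA. The IRF5-NP libraries had 60 to 243 Psmb9 counts, and the eGFP-NP libraries 66 to 163. Without IL4 2 Psmb9 was at 0.91, behind Ccl6 (0.92), a chemokine gene, and H2-Q1, H2-T23, Tnfrsf14 and H2-DMb1 were at 0.84, 0.85, 0.78 and 0.78. The lowest were Tbp (-0.90), which encodes the TATA-binding protein, Rhoj (-0.90), a small GTPase gene, and Ndufa7 (-0.88), a gene of respiratory complex I. Under housekeeping scaling these 3 were at -0.71, and Tbp is itself one of the housekeeping genes. For deviations from the group means the likeness was weaker: Psmb9, H2-Q1, H2-T23, Tnfrsf14 and H2-DMb1 were at 0.93, 0.87, 0.80, 0.87 and 0.80, which ranked them 9, 27, 43, 25 and 40 of 549, and Tbp, Rhoj and Ndufa7 were at -0.72, -0.75 and -0.45.

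Other genes of the complement system were then examined, which played no part in choosing C1q. Of 57 fixed complement genes 11 were in the table, and C1ra, C1s, C2 and Serping1, the proteases and the inhibitor that act next to C1q, were not among these 11. Between MPLA and IL4 edgeR called 3 of 11, where 26.4% of all genes were called. C5ar1, the receptor of the chemoattractant C5a, was higher in MPLA (log2 difference 1.52 ± 0.30 SE, edgeR adjusted p = 0.00933). Itgb2, the β2 integrin chain shared by complement receptors 3 and 4, was lower (-1.29 ± 0.32, edgeR adjusted p = 0.0235). Itgax, the CD11c chain of complement receptor 4, was also lower (-3.66 ± 1.06, edgeR adjusted p = 0.0364), although its groups overlapped, with 92 to 181 counts in MPLA and 795, 26, 2293 and 1296 in IL4 1 to 4. The median log2 difference of the 11 genes was -0.13, against -0.05 over all genes. The C5ar1 call was kept in 18 of 22 alternatives and was lost under housekeeping scaling (1.18, edgeR adjusted p = 0.0636), under positive control scaling and by the methods' t-test. The Itgb2 call was kept in 11 of 22 alternatives and was lost without any 1 of the 4 MPLA libraries and with the stromal covariate (-0.65). The Itgax call was kept in 8 of 22 alternatives, also being lost without any 1 MPLA library, and merging all nearly identical pairs left no call.

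C3, on which the complement cascades converge, and C4a, a homologue of the classical pathway component C4, differed from C1q in the place of MPLA. Mean C3 levels were 11.54 log2 CPM in MPLA, 10.21 in IL4, 9.52 in IRF5-NP and 8.49 in eGFP-NP. Mean C4a levels were 6.03 in IL4, 5.89 in MPLA, 4.03 in IRF5-NP and 3.38 in eGFP-NP, with the IL4 mean raised by IL4 2. The means of IL4, IRF5-NP and eGFP-NP thus stood in the C1q order for both genes. C3 had 4822 to 6267 counts in MPLA, 350, 5101, 3879 and 773 counts in IL4 1 to 4, 782, 753 and 375 in IRF5-NP 1, 2 and 4 and 168, 155, 548 and 511 in eGFP-NP 1 to 4. On the log2 CPM scale the IL4 libraries (8.28 to 11.85) spanned the values of MPLA and IRF5-NP, and C3 was not called between the standards (0.61 ± 0.74, edgeR adjusted p = 0.575). C4a had 96 to 118 counts in MPLA and 33, 3059, 20 and 19 in IL4 1 to 4, and it was below background in every IRF5-NP and eGFP-NP library (7 to 15 counts). Apart from IL4 2, where C1q was also highest, only MPLA and IL4 1 had C4a above background. C4a has a near-identical neighbour, C4b, and probe sequences that would separate them were not analysed here.

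Against MPLA, edgeR called 6 of 11 complement genes for IRF5-NP (24.4% of all genes) and 5 of 11 for eGFP-NP (19.6% of all genes). C3 was lower in both, by -1.92 ± 0.23 SE in IRF5-NP (edgeR adjusted p = 0.00566) and -2.87 ± 0.51 in eGFP-NP (edgeR adjusted p = 0.00984). C5ar1 was lower in both, by -0.65 ± 0.18 (edgeR adjusted p = 0.0427) and -1.67 ± 0.23 (edgeR adjusted p = 0.00390), and so was Pros1, protein S, a bridging ligand for the uptake of dying cells, by -0.82 ± 0.22 (edgeR adjusted p = 0.0363) and -0.94 ± 0.13 (edgeR adjusted p = 0.00390). Itgal, the CD11a integrin chain, was lower in IRF5-NP (-1.19 ± 0.22, edgeR adjusted p = 0.0139), and C4a was lower in eGFP-NP (-2.71 ± 0.23, edgeR adjusted p = 0.000451), with no eGFP-NP count above background, so that the size of this difference is not measured. Itgax was higher in IRF5-NP (4.68 ± 1.22, edgeR adjusted p = 0.0344) and in eGFP-NP (3.99 ± 0.82, edgeR adjusted p = 0.0178). Its IRF5-NP counts were 3247, 2751 and 12, so the library with high stromal genes was below background and the groups overlapped, and with the stromal mean as a covariate the difference turned to -2.45. Fcnb, a ficolin gene, was called higher in IRF5-NP (1.59 ± 0.39, edgeR adjusted p = 0.0300) at 10 to 18 counts in both groups, which is background. The medians of the 11 genes were 0.03 and 0.15 log2, against 0.07 and 0.06 over all genes. The calls of C3 were kept in 16 of 21 alternatives for IRF5-NP and 17 of 21 for eGFP-NP, whereas those of C5ar1 and Pros1 for IRF5-NP were kept in 5 and 6 of 21 and were lost without any 1 of the 4 MPLA libraries. The Itgax calls were kept in 9 of 21 alternatives for IRF5-NP and 12 of 20 for eGFP-NP, and both were likewise lost without any 1 MPLA library. With all nearly identical pairs merged neither comparison had a call. The count for IRF5-NP was 10 without IRF5-NP 4 and that for eGFP-NP was 10 without eGFP-NP 1-2. The share of all genes called in these 2 fits is not given, so nothing about the complement genes is read from them.

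No complement gene was called by edgeR between either nanoparticle group and IL4, nor between the cargos. In each of these comparisons edgeR called 0 of all 754 genes. For IRF5-NP against IL4, eGFP-NP against IL4 and IRF5-NP against eGFP-NP, edgeR had 0, 2 and 1 of 11 genes at an unadjusted p under 0.05, and DESeq2, limma and the methods' t-test called 0 of the 11. Among all 754 genes edgeR had 53, 84 and 42 at an unadjusted p under 0.05, and DESeq2 called 19, 53 and 7. The 1 gene between the cargos was C5ar1 (IRF5-NP minus eGFP-NP 0.91 ± 0.31 SE, edgeR adjusted p = 0.829). Its log2 CPM levels were 10.44 to 10.55 for IRF5-NP and 9.35 to 10.01 for eGFP-NP. These did not overlap, as for the 7.96% of all genes above. Its raw counts were 1692, 1505 and 660 in IRF5-NP 1, 2 and 4 and 1135, 1177, 666 and 600 in eGFP-NP 1 to 4. The raw counts overlapped only through IRF5-NP 4, the shallowest library. C5ar1 CPM without TMM factors was 1121, 1061 and 2480 in IRF5-NP and 767, 772, 800 and 813 in eGFP-NP, without overlap. The median log2 differences of the 11 genes were 0.61, -0.16 and 0.57, against -0.14, -0.08 and 0.10 over all genes. All 3 C1q genes were below IL4 in both nanoparticle groups. Differences from IL4 of C3 (-1.57 and -2.38), C4a (-5.14 and -6.07), Pros1 (-0.86 and -0.84), Itgal and Calr were also negative for IRF5-NP and eGFP-NP. Those of C3ar1, Itgam, Itgax and Itgb2 were positive for both groups, and those of C5ar1 and Fcnb differed in sign.

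**Figure D5:**
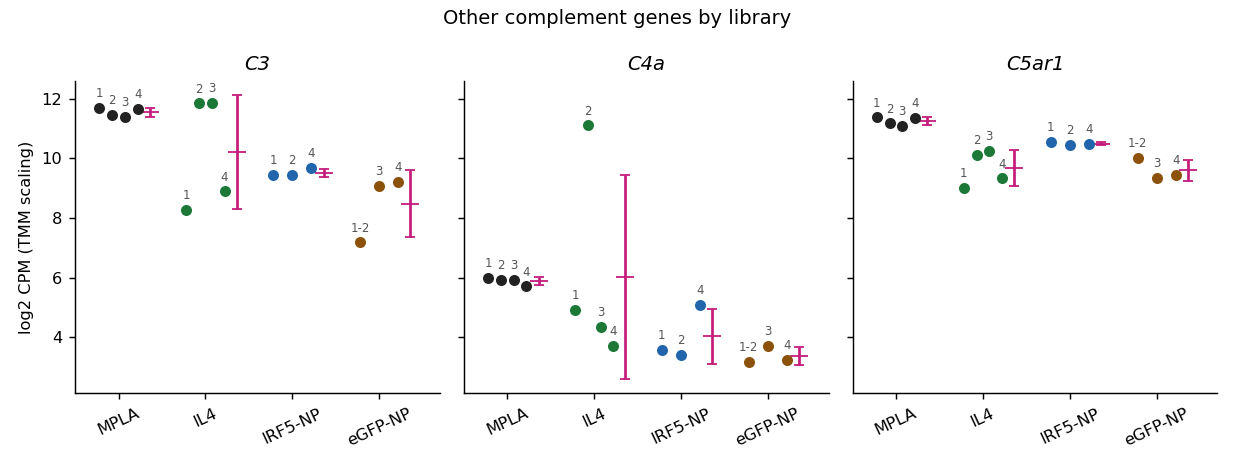
Levels of C3, C4a and C5ar1 (vertical axis, log2 CPM) in the 14 libraries by group (horizontal axis), with replicate numbers, and the mean with its SD beside each group. C3 and C5ar1 are high in all 4 MPLA libraries, and C4a is high in IL4 2 alone, at 3059 counts.

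Other fixed gene lists give the setting in which C1q was measured. Of 21 genes of the IL-4 response, edgeR called 16 lower in MPLA than in IL4 and 0 higher, with a median log2 difference of -3.03, and 12 higher in IRF5-NP and 9 higher in eGFP-NP than in MPLA. Across all genes edgeR called 12.2% higher and 14.2% lower in MPLA relative to IL4, 11.5% higher and 12.9% lower in IRF5-NP relative to MPLA, and 7.16% higher and 12.5% lower in eGFP-NP relative to MPLA. Of 27 genes of the TLR4 and interferon response, 6 were higher in MPLA than in IL4 and 1 was lower. Relative to MPLA, 11 were lower and 1 was higher in IRF5-NP, and 14 were lower and 2 higher in eGFP-NP. Of 13 genes of resident and efferocytic macrophages, which C1q often accompanies in tissue, 3 were higher in MPLA than in IL4 and 3 were lower. Mertk, the receptor tyrosine kinase for the uptake of dying cells, had the highest Pearson r with C1q of that list over all libraries (0.80, and 0.63 without IL4 2), whereas Marco, a scavenger receptor, had the lowest (-0.37, unchanged to 2 decimals without IL4 2). For the comparisons of IRF5-NP with IL4, eGFP-NP with IL4 and IRF5-NP with eGFP-NP, no gene of these lists was called by edgeR. In each of them edgeR called 0 of all 754 genes.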

How the data were processed

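BMDM RNA of 15 samples was counted on the nCounter panel. The authors deposited raw counts, which carry neither the quality check, the housekeeping normalization nor the log2 transformation that the methods name; no genome build applies to them. The table held 754 genes, 6 positive and 8 negative controls. Lane and cartridge are not given in the sources used here. The C1q genes, the lists and the naming rule were chosen with earlier results of these data known. The rule named the 3 subunits, up to 6 called complement genes per comparison, 5 genes most and 3 least like C1q, and the partners of C1q.

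Groups came from the labels. Replicates were compared by chi-square, leaving out genes with under 40 counts in the pair; eGFP-NP 1 and 2 (1.09 per degree of freedom) were summed, the other near-identical pairs (up to 2.56, against 41.4 to 1250 in the rest) were kept. Groups were fitted in pairs by edgeR's quasi-likelihood test (edgeR 4.0.16, R 4.3.3, TMM scaling, no filter) over all genes, with calls at a two-sided Benjamini-Hochberg adjusted p under 0.05. SE was taken from the log2 difference and F (log2 difference over root F). Levels are log2 CPM with a prior count of 2. The code was tested on simulated data. Alternatives used other scalings, DESeq2 1.42.0, limma 3.58.1, the methods' t-test, a low-count filter, background subtraction, all groups in 1 fit, a stromal covariate, a replicate block, merged or separate libraries and libraries left out. Deviations of same-numbered libraries from their group means correlated at 0.82 for each of the numbers 1, 2 and 4 between IRF5-NP and eGFP-NP. In no other comparison did every pair exceed 0.1. Since IRF5-NP 1 and 2 are nearly identical, as are eGFP-NP 1 and 2, these values are not independent and cannot show that the numbers pair samples. The numbers were used as pairs only in the same-number differences and the replicate block, and the main fits were unpaired. Housekeeping genes (20) were called in at most 1 of 20 per comparison. A result on a withheld item is not reported here. Of 754 gene names 744 matched a current symbol of GRCm38.p6.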

Additional observations from a re-analysis of the deposited data

Results flagged for a closer look

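Within groups of 4 libraries, 32 sets of values (the C1q genes, the complement genes and the stromal and pan-macrophage means, each in MPLA and in IL4) were examined for a library far from the others, of which chance gives about 1 in 20. C4a in IL4 had 1 library far above the rest, IL4 2 (gap to range 0.834, 11.1 log2 CPM). Itgal in MPLA had 1 library below the rest, MPLA 3 (gap to range 0.873, 8.69 log2 CPM). Pros1 in MPLA had 1 library above the rest, MPLA 1 (gap to range 0.905, 9.10 log2 CPM). The C1q genes did not pass this criterion in MPLA or in IL4. IRF5-NP and eGFP-NP, with 3 libraries each, were not examined.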

How the results depend on the processing

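Of 378 alternative values of the C1q differences 377 kept their sign. The exception was C1qb in IRF5-NP vs MPLA, which turned to -0.48 with the stromal covariate. With that covariate C1qa was 0.56 and C1qc 0.0078 in the same comparison, and C1qa was -1.90 and C1qc -1.32 in eGFP-NP vs MPLA. Under positive control scaling C1qa was 0.58 in IRF5-NP vs MPLA, 2.86 in IRF5-NP vs eGFP-NP, -6.29 in eGFP-NP vs IL4 and -2.29 in eGFP-NP vs MPLA. In the last 3 of these comparisons C1qb was 2.42, -6.57 and -2.28 and C1qc was 2.24, -4.84 and -1.83. Pan-macrophage scaling gave C1qb 1.04 in IRF5-NP vs eGFP-NP and -0.96 in eGFP-NP vs MPLA. Leaving out 1 library moved the comparisons with IL4 by more than the spread between replicates only without IL4 2. The ranges for C1qa, C1qb and C1qc were -3.71 to -2.37, -4.00 to -2.63 and -2.73 to -1.70 in MPLA vs IL4, -2.93 to -1.45, -3.74 to -2.24 and -2.19 to -1.02 in IRF5-NP vs IL4, and -5.18 to -3.67, -5.38 to -3.88 and -3.72 to -2.53 in eGFP-NP vs IL4. Under a replicate block the differences in IRF5-NP vs eGFP-NP were 1.85, 1.35 and 1.16, and the block moved no C1q difference in any comparison by more than the spread between replicates.

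The number of complement genes called moved more. In MPLA vs IL4 (3 called) it was 1 under positive control scaling, in a fit of all groups, with the stromal covariate and with the block, 0 by the methods' t-test and with all nearly identical pairs merged, and 1 to 5 without 1 library (5 without IL4 2). In IRF5-NP vs MPLA (6 called) it was 3 under positive control scaling, by limma and in a fit of all groups, 1 under pan-macrophage scaling, 0 by the methods' t-test, with the block and with pairs merged, and 2 to 10 without 1 library. In eGFP-NP vs MPLA (5 called) it was 3 by the methods' t-test, 1 in a fit of all groups, 8 with the covariate, 0 with pairs merged and 4 to 10 without 1 library. In IRF5-NP vs IL4 (0 called) it was 1 under positive control scaling, C4a. Calls over all 754 genes moved as well. By edgeR, DESeq2, limma and the methods' t-test they were 199, 291, 168 and 21 in MPLA vs IL4. They were 184, 388, 188 and 11 in IRF5-NP vs MPLA, and 148, 228, 147 and 50 in eGFP-NP vs MPLA. Shares of all genes under the other alternatives are not given, so nothing is read from the counts of complement genes. Of the called complement genes only Itgax in IRF5-NP vs MPLA reversed, to -2.45 with the stromal covariate. The causes were not tested. Counts near background limit C4a in the nanoparticle groups and Fcnb throughout, and the near-identical libraries mean that the number of independent cultures may be below the n given. The likeness without IL4 2 and over deviations from group means was added after the data were seen.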
